A study of Mus musculus with 6 samples.

Results

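The mRNAs of the kinases that phosphorylate eIF2, of eIF2 itself and of its exchange factor eIF2B were followed in melanoma cells depleted of OSGEP. The 10 genes were chosen by name, as 3 eIF2 kinases (Eif2ak1, Eif2ak3 and Eif2ak4), 2 subunits of eIF2 (Eif2s1 and Eif2s2) and the 5 subunits of eIF2B (Eif2b1 to Eif2b5), and were taken from a table of 55487 genes. All 10 had enough counts to be tested, among 12669 genes in all. The question was whether the transcripts of this machinery differ in level when the enzyme behind the t6A modification of tRNAs is depleted.

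The cells were B16F10, a mouse melanoma line. Control cells (shCtr, n = 3, labelled wild type) carried a lentiviral scramble shRNA, and depleted cells (shOSGEP, n = 3, labelled as an OSGEP knockdown) carried a lentiviral shRNA against Osgep, the hairpin numbered 2. Both groups went through infection and puromycin selection, and each library came from a separate infection per the methods of the study. The design therefore holds 1 cell line and 1 hairpin, and the effects of the target and of the hairpin cannot be told apart. PolyA RNA was sequenced, so the values are steady-state mRNA levels and give neither protein amount nor phosphorylation. In such bulk RNA, fewer cells that express a gene and less RNA per cell cannot be told apart.

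eIF2 carries the initiator methionyl-tRNA to the small ribosomal subunit, and it hydrolyses GTP when the start codon is recognised. eIF2B, a decamer built from pairs of its subunits, returns eIF2 to the GTP-bound form. Each kinase answers to its own stress and phosphorylates the same serine of the eIF2 alpha subunit, which turns eIF2 from a substrate of eIF2B into its inhibitor. Initiation on most mRNAs then drops while mRNAs such as Atf4 are translated better, and this is the integrated stress response. t6A sits next to the anticodon of tRNAs that read codons beginning with A (ANN codons).

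The stretch of Eif2s1 that holds this serine is shown because it is the point where all the kinases meet. It lies in a single coding exon at chr12:78866650-78866709, plus strand (GRCm38, GENCODE M21), and the capitals mark the codon of serine 51, numbered without the initiator methionine and so codon 52 of the reading frame.
Eif2s1: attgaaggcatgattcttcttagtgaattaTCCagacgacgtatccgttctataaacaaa
The codon of the phosphorylated serine, TCC, is not an ANN codon. The first 60 coding bases of the members with the lowest and the highest GC content are shown next, with G and C in capitals. They are shown because GC content moved with the values of some libraries, most strongly shCtr replicate 2, as described further on. The first line is at chr12:78866527-78866586 on the plus strand, and the second lies within chr5:31192597-31193023 on the minus strand and spans an intron.
Eif2s1: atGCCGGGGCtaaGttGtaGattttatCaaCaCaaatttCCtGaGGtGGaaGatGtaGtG
Eif2b4: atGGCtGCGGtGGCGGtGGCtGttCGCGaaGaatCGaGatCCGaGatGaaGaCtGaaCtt
G and C made up 41.7% of the Eif2s1 stretch and 55% of the Eif2b4 stretch.

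Libraries held from 18915587 to 29487384 counts, which puts 3 counts, the floor used here for counting error, between 0.116 and 0.147 CPM (a count relative to the TMM-scaled library size). Osgep was lower in every shOSGEP library (4.28, 0.542 and 5.52 CPM for replicates 1, 2 and 3) than in any shCtr library (20.6, 58.6 and 21.8 CPM), in the direction of the labels. All 7 melanocyte lineage genes examined were expressed in all 6 libraries, although their summed level was 3551 CPM in shOSGEP replicate 2 against 15387 to 29599 CPM elsewhere. Mitf among them was low in both replicate 2 libraries, at 29.3 CPM in shCtr and 30.6 CPM in shOSGEP, against 202 to 339 CPM elsewhere. Of 6 markers of other cells, Ptprc, Cd3e and Alb were at 0 in every library. Cd68 was found in every library, at 0.504 to 7.47 CPM. Pecam1 reached at most 0.31 CPM and Krt14 at most 0.0425 CPM. The 6 markers together summed to at most 7.47 CPM. shCtr replicate 2 stood apart in its scaling and in how its values moved with GC content, and shOSGEP replicate 2 in its summed melanocyte markers. shCtr replicate 2 had a TMM factor of 0.690 against 1.04 to 1.14 in the others. Its log2 CPM differed from the mean of the other controls by a median of -3.18 in 655 genes below 40% GC. In 577 genes above 60% GC the median was 1.44. GC content and length went with 63.6% of the variance of its deviation from the mean of the 6 libraries. This share was 51.0% in shCtr replicate 1, 54.3% in shOSGEP replicate 1 and between 17.7% and 24.6% in the others. The members' results are therefore also given without shCtr replicate 2, and the calls among other genes of the pathway also without shOSGEP replicate 2 and without both replicate 2 libraries.

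The quasi-likelihood test of edgeR, with p adjusted over all genes by the method of Benjamini and Hochberg, called no member at the 0.05 level, and 0 of 12669 genes (0%) were called. At an unadjusted p under 0.05, 256 genes passed and no member was among them. DESeq2 called 17 genes and limma-voom with sample quality weights called 3 genes at an adjusted p under 0.05, again with 0 members. The threshold given in the study's methods, a Log2FC (log2 fold change, shOSGEP minus shCtr) above 0.5 or below -0.5 together with an unadjusted p under 0.05, was passed upward by 1.59% of all genes and downward by 0.426%, and by 0 of the 10 members. The members' Log2FC ran from -0.78 to 0.75 with a median of -0.20, beside a median of -0.03 over all genes tested, with 7 below 0 and 3 above (6 below 0 under upper-quartile scaling). Without shCtr replicate 2 the median was 0.14 with 4 members below 0. Without both replicate 2 libraries it was -0.10 with 5 below 0. The median thus changed sign without shCtr replicate 2 alone, but not without both.

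**Figure D1:**
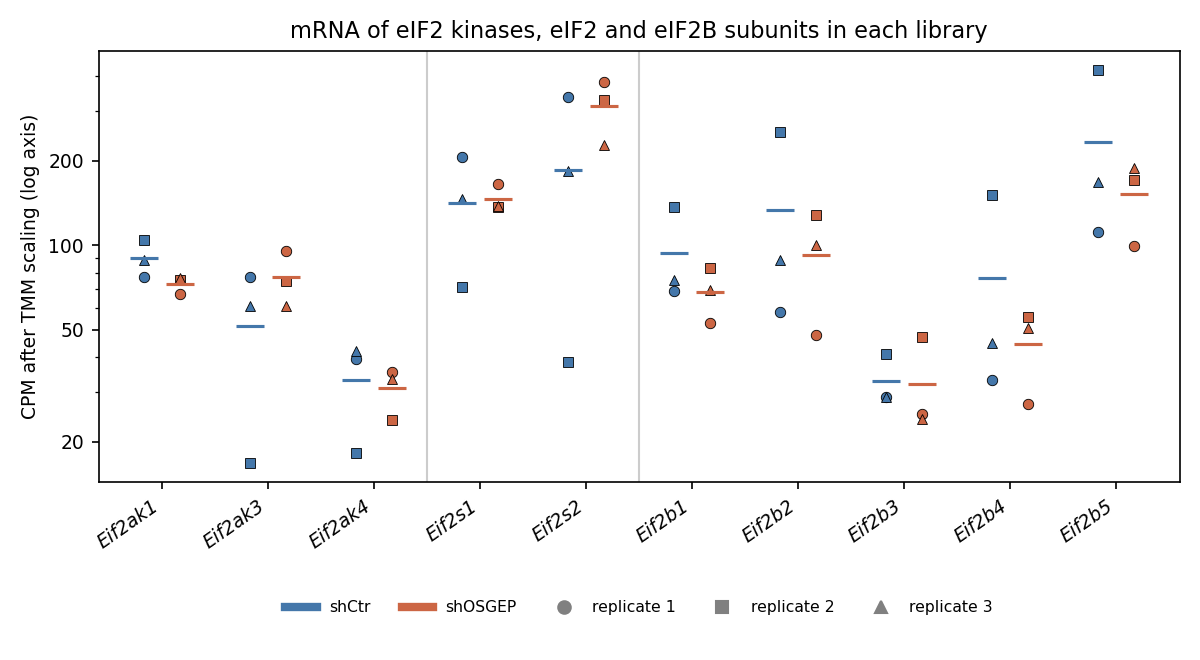
Level of each member in each library, as CPM after TMM scaling on a log axis, with shCtr in blue, shOSGEP in orange, the replicate number as the symbol and the group mean as a bar. The shCtr replicate 2 library (blue squares) lies far below the others for Eif2ak3 and Eif2s2 (16.8 and 38.4 CPM) and far above them for Eif2b2, Eif2b4 and Eif2b5 (253, 152 and 420 CPM).

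Among the kinases, Eif2ak1 encodes HRI, the heme-regulated kinase that also responds to mitochondrial and proteotoxic stress. It was measured at 77.2, 105 and 88.6 CPM in shCtr replicates 1, 2 and 3 and at 67.3, 75.4 and 76.6 CPM in shOSGEP. Every shOSGEP library lay below every shCtr library, by a narrow margin between 76.6 and 77.2 CPM. The means were 90.3 ± 13.9 and 73.1 ± 5.05 CPM (SD, n = 3), and the Log2FC was -0.30 (SE 0.365, 95% interval -1.14 to 0.53, edgeR's quasi-likelihood test, adjusted p = 1.00). As a fold this is 0.81, with an interval from 0.453 to 1.45, so neither a lower level nor a rise of up to that bound could be told from the spread. Eif2ak1 was the 1 member whose groups did not overlap downward, as did 2.87% of all genes tested. No member was without overlap upward, where 3.49% of all genes were. The exact two-sided permutation test of mean log2 CPM gave p = 0.1, the smallest value that 3 libraries against 3 can give.

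The ratio of Eif2ak1 to the same-numbered control, on the log2 scale, was -0.20, -0.48 and -0.21 for replicates 1, 2 and 3. It was below 0 in all 3, which held for 2 of the 10 members (Eif2ak1 and Eif2b1) and for 17.2% of all genes. Its standard error of 0.365 was at percentile 0.687 of the genes tested, so few genes had a smaller one. Its Log2FC stayed between -0.40 and -0.18 over the 18 alternative fits, without passing the test in any. The 3 genes whose pattern over the 6 libraries was nearest to that of Eif2ak1, by Euclidean distance of centred log2 CPM, were Hnrnpab (0.0918), Ppp2cb (0.146) and Gm45140 (0.152). The median distance over 12668 genes was 1.51. These 3 genes were picked as the nearest, so lying below that median was given by the choice.

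Eif2ak3 encodes PERK, the kinase of the endoplasmic reticulum membrane that senses unfolded proteins in its lumen. Its shCtr libraries held 77.3, 16.8 and 60.6 CPM and its shOSGEP libraries 95.4, 74.7 and 60.7 CPM. The groups overlapped, and the means were 51.6 ± 31.3 and 76.9 ± 17.5 CPM (SD, n = 3), with shCtr replicate 2 far below all other libraries. The Log2FC was 0.58 (SE 0.577, 95% interval -0.75 to 1.90, edgeR's quasi-likelihood test, adjusted p = 1.00), and without shCtr replicate 2 it was 0.15. The ratios within replicate numbers were 0.30, 2.15 and 0.00077 on the log2 scale, so replicate 3 showed next to no difference. Ratios were above 0 in all 3 numbers for Eif2ak3 and Eif2s2 among the members, and for 17.6% of all genes.

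Eif2ak4 encodes GCN2, which is activated by uncharged tRNAs and stalled ribosomes. It was measured at 39.6, 18.2 and 42.1 CPM in shCtr against 35.5, 23.8 and 33.6 CPM in shOSGEP. Replicate 2 was the lowest library in both groups, and the groups overlapped. The Log2FC was -0.10 (SE 0.463, 95% interval -1.16 to 0.96), and it was -0.40 without shCtr replicate 2. It changed sign in 4 of the 18 alternative fits.

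Per kb of summed exon length, Eif2ak4 was the lowest of the 3 kinases in every library. Its share of the 3 kinases' summed level per kb ran from 10.3% to 18%. Eif2ak1 held 42.9%, 78.0% and 49.9% of this sum in shCtr and 36.6%, 46.0% and 48.1% in shOSGEP, and Eif2ak3 held 40.4%, 11.8% and 32.1% against 48.8%, 42.9% and 35.9%. Eif2ak1 was thus the highest kinase in every library but shOSGEP replicate 1, where Eif2ak3 was higher. Within each replicate number the share of Eif2ak1 was lower in shOSGEP, by the least in number 3. The summed level of the 3 kinases lay between 23.7 and 32.5 CPM per kb in all 6 libraries.

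Of the eIF2 subunits, Eif2s1 encodes the alpha subunit that is phosphorylated. It was measured at 207, 71.3 and 146 CPM in shCtr against 165, 137 and 139 CPM in shOSGEP. All depleted libraries lay inside the range of the controls. The Log2FC was 0.05 (SE 0.465, 95% interval -1.01 to 1.12), and it was -0.27 without shCtr replicate 2. Its sign changed in 6 of the 18 alternative fits.

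Eif2s2 encodes the beta subunit, which binds eIF5 and eIF2B. Its shCtr libraries held 336, 38.4 and 184 CPM and its shOSGEP libraries 382, 329 and 229 CPM. The highest shCtr value was 8.76 times the lowest, the widest spread of any member in that group. The means were 186 ± 149 and 313 ± 77.8 CPM (SD, n = 3), and the groups overlapped. The Log2FC was 0.75 (SE 0.699, 95% interval -0.85 to 2.35), the highest of the 10 members, and it was 0.26 without shCtr replicate 2. The ratios within replicate numbers were 0.18, 3.09 and 0.31 on the log2 scale, all above 0.

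Eif2s3x, which encodes the gamma subunit of eIF2 and is not among the members, had a Log2FC of 0.05. Its Y-linked copy Eif2s3y was at 0 counts in every library. 12.4% of the 31-base words of Eif2s2 transcripts and 10.5% of those of Eif2s1 also occurred in other annotated genes, chiefly in Gm9892 and Gm7459. The share of reads that Salmon assigned away from these members is not known from the table.

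The 5 subunits of eIF2B had Log2FC between -0.78 and -0.03, with a median of -0.53 beside -0.03 over all genes. Without shCtr replicate 2 their median was 0.16, with Eif2b1 alone below 0, and without both replicate 2 libraries it was 0.0079. Among the scalings, Eif2b3 was above 0 (0.11) under upper-quartile scaling. Eif2b1 encodes the alpha subunit of the regulatory part of eIF2B that reads eIF2 phosphorylation, together with the beta and delta subunits. It was measured at 68.7, 137 and 75.2 CPM in shCtr against 52.8, 83.2 and 69.6 CPM in shOSGEP, with overlapping groups. Replicate 2 was the highest library in both groups. The Log2FC was -0.45 (SE 0.437, 95% interval -1.45 to 0.55), the ratios within numbers were -0.38, -0.72 and -0.11 on the log2 scale, and the Log2FC without shCtr replicate 2 was -0.07.

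Eif2b2, the beta subunit, stood at 57.8, 253 and 88.9 CPM in shCtr against 48.1, 128 and 100 CPM in shOSGEP. Eif2b4, the delta subunit, stood at 33.2, 152 and 44.9 CPM in shCtr against 27.3, 55.7 and 50.9 CPM in shOSGEP. In both genes the shCtr replicate 2 library lay above all others and the remaining 5 libraries overlapped. The Log2FC of Eif2b2 was -0.53 (SE 0.635, 95% interval -1.99 to 0.92) and that of Eif2b4 was -0.78 (SE 0.640, 95% interval -2.25 to 0.69), the lowest of the 10 members. Without shCtr replicate 2 both changed sign, to 0.33 and 0.19.

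Eif2b5 encodes the epsilon subunit, which holds the catalytic domain for nucleotide exchange, and Eif2b3 encodes the gamma subunit, its partner in the catalytic part. Eif2b5 was measured at 111, 420 and 168 CPM in shCtr against 99.3, 171 and 189 CPM in shOSGEP. Again shCtr replicate 2 stood above the other 5 libraries. The Log2FC was -0.61 (SE 0.568, 95% interval -1.91 to 0.69), and it was 0.13 without shCtr replicate 2. Eif2b3 was measured at 28.9, 40.9 and 28.8 CPM in shCtr against 25.2, 47.3 and 24.2 CPM in shOSGEP, so that replicate 2 was the highest library in each group. Its Log2FC was -0.03 (SE 0.445, 95% interval -1.05 to 0.99), with a change of sign in 7 of the 18 alternative fits.

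The subunits of eIF2B were compared with each other within each library. Eif2b5 held between 33.8% and 41.3% of the summed eIF2B level per kb in all 6 libraries, Eif2b2 between 25.9% and 34.9%, Eif2b1 between 12.8% and 22.7%, and Eif2b4 between 10.6% and 14.1%. Eif2b3 held the smallest share in every library, from 1.52% to 3.91%. The eIF2B sum in shCtr was 117, 414 and 163 CPM per kb, and in shOSGEP it was 98.6, 195 and 176 CPM per kb. The eIF2 sum over Eif2s1 and Eif2s2 was 91.7, 20.1 and 56.8 CPM per kb in shCtr and 89.9, 76.3 and 61.8 CPM per kb in shOSGEP. The ratio of the eIF2B sum to the eIF2 sum was therefore 1.28, 20.6 and 2.86 in shCtr and 1.10, 2.55 and 2.85 in shOSGEP. Same-numbered libraries were close in numbers 1 and 3, and shCtr replicate 2 lay far above the other 5 libraries. The eIF2 sum leaves out the gamma subunit, Eif2s3x, while the eIF2B sum holds every subunit, so the ratio does not compare whole complexes. The size of this ratio also depends on the length used. Eif2s2 has 6755 bases of summed exons but 2542 bases in its longest coding transcript. In shCtr replicate 1 it stood at 132 CPM per kb of that transcript, against 49.8 CPM per kb of summed exons.

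**Figure D2:**
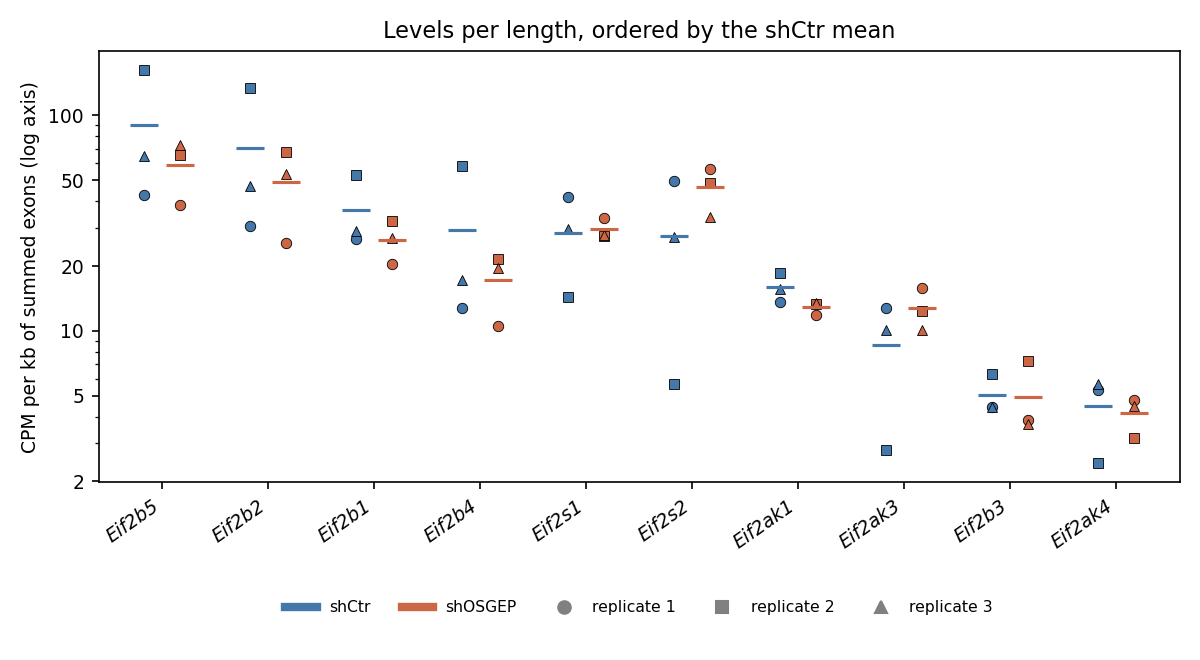
Level of each member as CPM per kb of summed exon length on a log axis, ordered by the shCtr mean, with shCtr in blue, shOSGEP in orange, the replicate number as the symbol and the group mean as a bar. By this length, Eif2b5 is among the 2 highest members in every library, and Eif2b3 and Eif2ak4 are at the low end.

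By mean shCtr level per kb, the order of the members from the top was Eif2b5, Eif2b2, Eif2b1, Eif2b4, Eif2s1, Eif2s2, Eif2ak1, Eif2ak3, Eif2b3 and Eif2ak4. The mean levels ran from 89.8 ± 63.3 CPM per kb for Eif2b5 to 4.46 ± 1.76 CPM per kb for Eif2ak4 (SD, n = 3). Neighbours in this order overlapped over the shCtr libraries, with the exception of Eif2ak1 and Eif2ak3. Over the shOSGEP libraries 4 pairs of neighbours did not overlap. Eif2s2 lay above Eif2ak1 and Eif2ak3 above Eif2b3, while Eif2s1 lay above Eif2b4 and Eif2s2 above Eif2s1, both against the order of the shCtr means. Eif2s2 moved most in rank, from the highest member in both replicate 1 libraries to the eighth in shCtr replicate 2. Per kb of the longest coding transcript, Eif2s2 was instead at rank 1 in every library but shCtr replicate 2, where it was at rank 7. By that length Eif2b5 was at rank 1 by the shCtr mean and at rank 2, behind Eif2s2, by the shOSGEP mean. The kinases were below both eIF2 subunits in 5 of the 6 libraries by rank, the exception being shCtr replicate 2, where Eif2ak1 was above both.

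**Figure D3:**
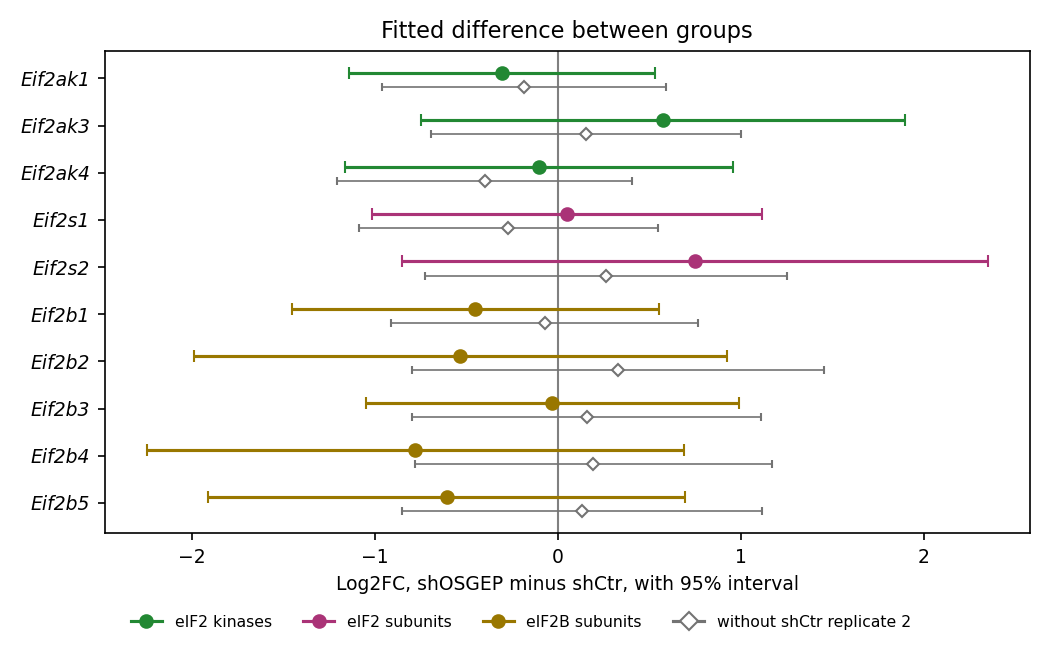
Log2FC of each member (shOSGEP minus shCtr) with its 95% interval, in colour by role, and in grey the same fit without shCtr replicate 2. All 20 intervals include 0, and 5 members are on the other side of 0 without that library.

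The intervals show what size of difference these libraries could hold. The distance from the Log2FC to the end of its 95% interval was 0.84 for Eif2ak1, the smallest of the 10, and 1.60 for Eif2s2, the largest. Without shCtr replicate 2 the Log2FC of 5 members changed sign (Eif2s1, Eif2b2, Eif2b3, Eif2b4 and Eif2b5), and 4 members instead of 7 were below 0. The sign was the same in all 18 alternative fits for 4 members (Eif2ak1, Eif2ak3, Eif2s2 and Eif2b1). Across all members and alternatives the smallest unadjusted p was 0.0656, for Eif2s2 without shCtr replicate 1, and the smallest adjusted p in edgeR, DESeq2 or limma-voom was 0.533.

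The members were also compared within replicate numbers. In numbers 1 and 3, all 20 ratios of shOSGEP to shCtr lay between -0.38 and 0.31 on the log2 scale. In number 2 they ran from -1.44 (Eif2b4) to 3.09 (Eif2s2). The median size of the ratio regardless of sign was 0.233, 0.960 and 0.177 for the members in numbers 1, 2 and 3, beside 0.219, 1.01 and 0.193 for all genes tested, so the members' ratios were of the size found across the transcriptome. In number 1, 8 of 10 members were below 0, and in numbers 2 and 3, 5 of 10 were.

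**Figure D4:**
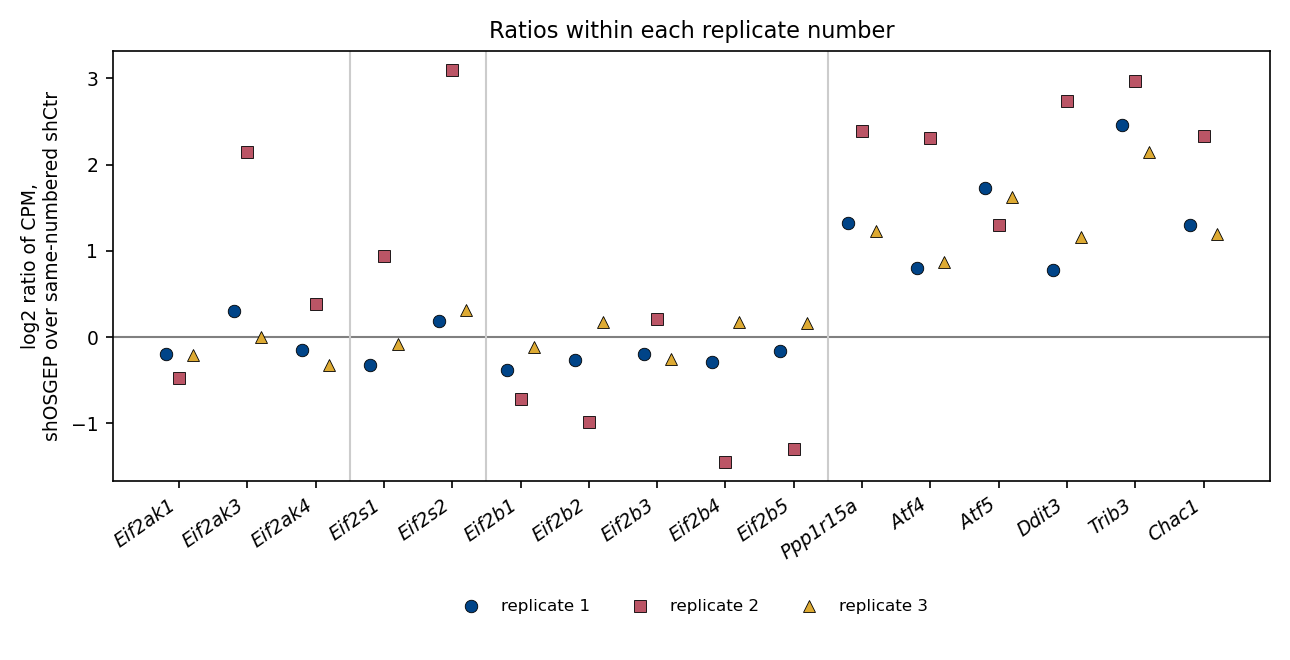
Ratio of each shOSGEP library to the shCtr library of the same replicate number, as a log2 difference of CPM, for the 10 members and, on the right, for 6 other genes of the pathway with an unadjusted p under 0.05. Replicates 1 and 3 of the members stay between -0.38 and 0.31, and the 6 genes on the right, shown because they passed that p, are above 0 in all 3 numbers, from 0.78 upward.

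The members' nucleotide composition moved with the replicate 2 values. GC content of the longest coding transcript ran from 40.8% for Eif2s1 and 42.1% for Eif2s2 to 55.1% for Eif2b2 and 56.8% for Eif2b4, beside a median of 50.1% over the genes tested. The difference of shCtr replicate 2 from the mean of the other controls was -1.29 and -2.69 in log2 CPM for Eif2s1 and Eif2s2, and 1.82, 1.97 and 1.62 for Eif2b2, Eif2b4 and Eif2b5. Across the 10 members, Spearman's rho of GC content with this difference was 0.71, and across 12658 tested genes it was 0.73. With the Log2FC it was -0.75 over the members and -0.45 over all genes. These are descriptions of values that share the same libraries, and genes are not independent replicates.

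**Figure D5:**
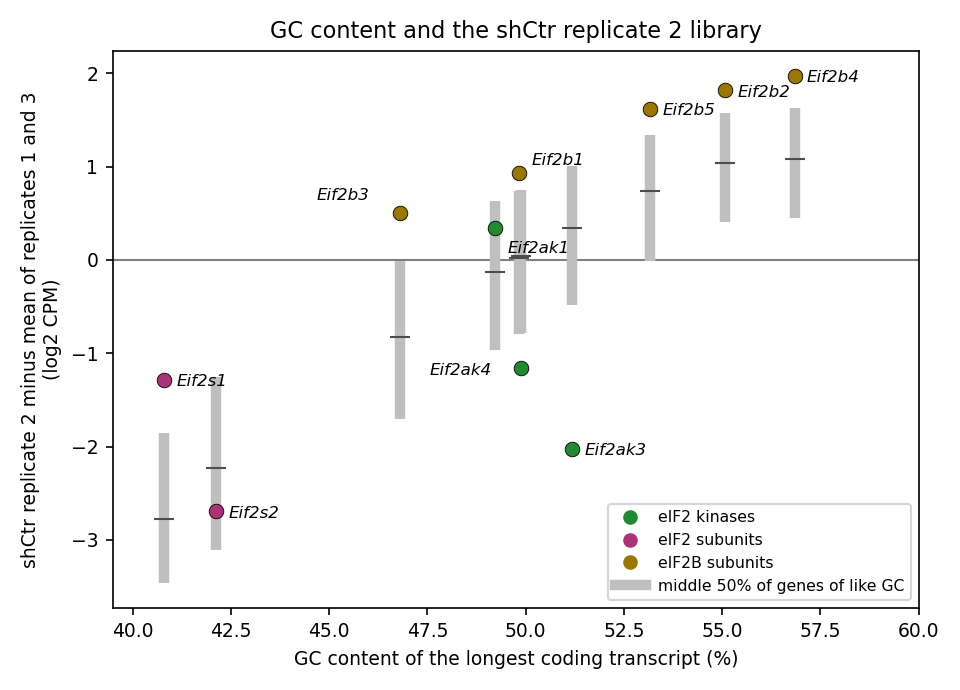
Difference of shCtr replicate 2 from the mean of shCtr replicates 1 and 3 in log2 CPM, against GC content of the longest coding transcript, for the 10 members. Grey bars give the middle 50% of all tested genes within 1 percentage point of the member's GC content, and the dash their median, and 2 members lie within their bar, 6 above and 2 below.

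Members of like GC content differed in this library. Set against tested genes within 1 percentage point of their own GC content, Eif2ak1 and Eif2s2 lay within the middle 50%, Eif2s1 and all 5 eIF2B subunits lay above it, and Eif2ak3 and Eif2ak4 lay below it. Eif2ak3, at 51.2% GC, was 2.02 lower in shCtr replicate 2 (a difference of -2.02), where 1281 genes of like GC had a median of 0.34. With offsets for GC content and length, the Log2FC was -0.40 for Eif2ak1, 0.62 for Eif2ak3, 0.63 for Eif2s2, -0.45 for Eif2s1 and between -0.44 and -0.18 for the eIF2B subunits, with 8 of the 10 members below 0 and none past the test. Whether composition or another property of the replicate 2 libraries set the members' values was not tested.

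The share of ANN codons in the coding sequence ran from 23.5% in Eif2b4 and 23.6% in Eif2b5 to 33.0% in Eif2s1 and 35.3% in Eif2s2, beside a median of 27.0% over 11509 tested genes. Eif2s2 and Eif2s1 stood at percentiles 97.1 and 92.4 of those genes, and the 3 kinases were between 27.4% and 28.3%. mRNA levels do not report on decoding, and the members richest in ANN codons were also those lowest in GC.

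Several members share their locus with another gene. Eif2ak1 (chr5:143817788-143904251, plus strand) overlaps Ankrd61 and Aimp2 on the opposite strand, and 10.3% of its 31-base words occurred in other genes, chiefly Aimp2. Eif2b4 (chr5:31187558-31193430, minus strand) overlaps Snx17 on the opposite strand, with 6.25% of its words shared. Eif2ak3 (chr6:70844515-70905245, plus strand) overlaps Gm43292 on the opposite strand, with 6.78% of its words shared. Nothing states that the library kit marked the strand, and reads from these overlaps cannot be assigned to one strand. Eif2s2 (chr2:154871410-154892935, minus strand) lies in its whole length within the span of the gene a (agouti) on the opposite strand. Eif2ak3 and Eif2b3 also hold the small RNA genes Gm23346 and Gm22335 on their own strand. Eif2ak4, Eif2b2 and Eif2b5 shared no word with another gene.

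The rest of the pathway was taken from 32 genes in 4 roles, of which 31 were tested. At the study's threshold 6 of them were higher in shOSGEP and none lower, beside 1.59% and 0.426% of all genes tested. None of them passed an adjusted p under 0.05. The list was chosen with earlier results of these data known, so its difference from these shares is not a test. The 6 were Ppp1r15a, Atf4, Atf5, Ddit3, Trib3 and Chac1, and 7 genes passed without both replicate 2 libraries, the same 6 among them. Only Trib3 passed without shOSGEP replicate 2, the library with the low sum of melanocyte markers, and likewise without shCtr replicate 3. Without shCtr replicate 1, 3 genes passed (Atf4, Ddit3 and Trib3). Atf5 did not pass without shOSGEP replicate 3 or without both libraries of number 1, where 5 genes passed. Without both libraries of number 3, Trib3 alone passed. shOSGEP replicate 2 was also the library lowest in Osgep, at 0.542 CPM against 4.28 and 5.52 CPM in shOSGEP replicates 1 and 3. Neither the part of the low melanocyte markers nor that of the lower Osgep level in these values was tested. The Log2FC of the 31 tested genes had a median of 0.40. Of 7 tested partners of eIF2, with the gamma subunit gene Eif2s3x counted among them, none passed the threshold. Eif2ak2, the kinase activated by double-stranded RNA (PKR), stood at 48.3, 6 and 31.4 CPM in shCtr against 55.5, 38.8 and 35.1 CPM in shOSGEP (Log2FC 0.59, SE 0.685). Its groups overlapped, and shCtr replicate 2 was the low library as it was for Eif2ak3. Bzw2, a mimic of eIF5, stood at 121, 143 and 140 CPM in shCtr against 107, 107 and 108 CPM in shOSGEP (Log2FC -0.32, SE 0.351), without overlap.

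None of 8 regulators of the kinases passed the threshold. Oma1 and Hspa5 are given because their unadjusted p was the smallest of the 8. Oma1, the mitochondrial protease that relays stress to HRI by cleaving DELE1, had a Log2FC of 0.42 (SE 0.426). It stood at 8.24, 7.57 and 7.93 CPM in shCtr against 9.58, 12.8 and 9.42 CPM in shOSGEP, without overlap. Of all genes tested, 3.49% were higher without overlap. Dele1 stood at 44.0, 105 and 54.3 CPM in shCtr against 50.1, 61.0 and 62.0 CPM in shOSGEP, with overlap. The Log2FC of Dele1 was -0.24 (SE 0.454). Hspa5, the endoplasmic reticulum chaperone that holds PERK inactive, stood at 1409, 867 and 1152 CPM in shCtr against 1633, 1677 and 1222 CPM in shOSGEP (Log2FC 0.40, SE 0.444), with overlap.

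Of 5 genes of the eIF2 phosphatase, 1 passed the threshold. Ppp1r15a, the inducible subunit GADD34 that directs the phosphatase to eIF2, stood at 16.2, 31.9 and 17.2 CPM in shCtr against 40.8, 167 and 40.6 CPM in shOSGEP, without overlap (Log2FC 1.93, SE 0.671, edgeR's quasi-likelihood test, adjusted p = 1.00). Its Log2FC was 0.93 without shOSGEP replicate 2, where it did not pass, and 1.29 without both replicate 2 libraries, where it did. Ppp1ca, a catalytic subunit, stood at 367, 1832 and 559 CPM in shCtr against 297, 569 and 650 CPM in shOSGEP (Log2FC -0.86, SE 0.672), a pattern over libraries like that of Eif2b2 and Eif2b4.

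Of the 11 genes known to respond to phosphorylated eIF2, all had a Log2FC above 0 (10 of them without shOSGEP replicate 2). Of the 11, 7 were higher without overlap, and 5 passed the study's threshold. Over all genes tested, 5998 of 12669 had a Log2FC above 0, 3.49% were higher without overlap and 1.59% passed the threshold upward. The 11 genes were listed with earlier results of these data known, so their difference from these shares is a description and not a test. Atf4, the central transcription factor of the response, stood at 280, 245 and 263 CPM in shCtr against 489, 1210 and 481 CPM in shOSGEP (Log2FC 1.47, SE 0.5). Trib3, a pseudokinase target of ATF4, stood at 23.2, 57.9 and 38.5 CPM in shCtr against 128, 454 and 171 CPM in shOSGEP (Log2FC 2.66, SE 0.624). The other genes past the threshold were Atf5 (1.48, SE 0.563), Ddit3, which encodes CHOP (1.83, SE 0.632), and Chac1, a glutathione-degrading enzyme (1.88, SE 0.670), each as Log2FC. Without shOSGEP replicate 2 the Log2FC was 0.90 for Atf4, 1.18 for Atf5, 0.92 for Ddit3, 1.93 for Trib3 and 0.88 for Chac1, and without both replicate 2 libraries it was 0.84, 1.67, 0.93, 2.28 and 1.25 in the same order. Within numbers 1 and 3 the log2 ratios of all 11 genes ran from -0.40 (Cebpb in number 1, the 1 ratio of 22 below 0) to 2.46 (Trib3 in number 1), beside -0.38 to 0.31 for the 10 members.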

How the data were processed

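B16F10 libraries of shCtr and shOSGEP cells (n = 3 each) were compared. The authors, per the labels and the published methods, trimmed reads with TrimGalore at a quality limit of 10, aligned them to GRCm38 with STAR 2.6.1d inside nf-core/rnaseq, and quantified genes with Salmon 1.4.0. The values deposited by the authors are estimated counts for each Ensembl gene in whole numbers, neither normalized nor filtered. Reads that fit several transcripts are shared out by likelihood in Salmon, which makes genes with near-identical copies less certain. The annotation release is not given in the sources used here.

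Groups and replicate numbers came from the labels. Of 55487 genes listed, 33666 had no count, and filterByExpr (minimum count 10, minimum total 15) kept 12669. After TMM scaling, groups were compared two-sided without a block by the quasi-likelihood F-test of edgeR 4.0.16 in R 4.3.3, and p-values were adjusted over all genes kept (Benjamini-Hochberg). Standard errors were the Log2FC divided by the root of F. Log2 CPM used a prior count of 2. The scripts were tested on simulated data. Positions, lengths, GC contents and sequences came from GENCODE M21 (GRCm38). Depth ran from 18915587 to 29487384 counts, and the floor of 3 counts covers counting error only.

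The members, gene lists, tests and alternatives were chosen with earlier results of these data known. Named genes were the 10 members, Osgep and the 3 genes nearest to Eif2ak1 in pattern. In each of the 4 roles of the pathway list, the 2 tested genes with the smallest unadjusted p were also named. Any gene of the list with an unadjusted p under 0.05 was added. Dele1, Eif2s3x, Eif2s3y and Cebpb were named outside this rule. Alternatives were limma-voom with sample quality weights (limma 3.58.1), DESeq2 1.42.0, other scalings and filters, a replicate block, offsets for GC content and length (natural splines, 5 degrees of freedom each), and leaving out libraries.

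For each replicate number, the deviation of its shCtr library from the shCtr mean was correlated across genes with that of its shOSGEP library. This gave 0.811, 0.557 and 0.196 for replicates 1, 2 and 3, all above the limit of 0.1. The numbers were therefore used as pairs in the ratios and in the replicate block. The main test, its intervals and the permutation test did not use the pairs. With the block the standard error of Eif2ak1 was 0.255, against 0.365 in the main fit. The pairing comes from the shared numbers and these values, and what a number marks is not stated. shCtr replicate 3 and shOSGEP replicate 1 correlated at 0.491, above the pair of number 3. shCtr replicate 2 and shOSGEP replicate 3, at 0.138, were also above the limit, which therefore does not single out same-numbered libraries.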

Additional observations from a re-analysis of the deposited data

How the results depend on the processing

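No member passed an adjusted p under 0.05, an unadjusted p under 0.05 or the study's threshold in any of the 18 alternative fits, and the replicate block changed no call, with Log2FC of -0.30 for Eif2ak1 and 1.13 for Eif2s2 in the paired fit. Genes past the study's threshold numbered 256, and 470 with DESeq2, 560 with limma-voom, 599 without a filter, 689 with GC and length offsets, 866 with those offsets and the block, 163 without both libraries of number 3, and from 67 (without shOSGEP replicate 2) to 453 (without shCtr replicate 1) with 1 library left out. Genes at an adjusted p under 0.05 numbered 0, against 17 with DESeq2 and 3 with limma-voom. Osgep and Trib3 passed with DESeq2.

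The members' median Log2FC of -0.20 was -0.10 with limma-voom, -0.10 with upper-quartile scaling, -0.35 with the offsets, -0.30 with the offsets and the block, -0.10 without both libraries of number 2, and from -0.35 to 0.14 with 1 library left out, positive without shCtr replicate 2. Some Log2FC changed sign, with the cause not tested. With 1 library left out, values ran from -0.40 to 0.11 for Eif2ak4, -0.27 to 0.43 for Eif2s1, -0.89 to 0.33 for Eif2b2, -0.40 to 0.16 for Eif2b3, -1.13 to 0.19 for Eif2b4, -0.94 to 0.13 for Eif2b5 and -1.24 to 0.13 for Ppp1ca. Without both libraries of number 2 they were -0.22 for Eif2s1, 0.023 for Eif2b2, 0.0079 for Eif2b4, 0.051 for Eif2b5 and 0.039 for Ppp1ca. Eif2ak4 was 0.037 without number 3. Eif2s1 was -0.049 with limma-voom, -0.45 with the offsets and -0.39 with the offsets and the block. Eif2b3 was 0.11 with upper-quartile scaling, 0.020 with at least 10 counts in every library, 0.043 without number 1 and 0.046 without number 3. Upper-quartile scaling moved the median of all genes from -0.03 to 0.07. Ordered by the length of the longest coding transcript, 7 of the 10 members kept their place by shCtr level. The members' counts were at least 342 in every library, above the floor of 3 counts. The parts of depth and of spread between libraries in their intervals were not separated.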
